A study of Mus musculus with 6 samples.

Results

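The p53 target genes of apoptosis described here are Bax, Bbc3, Pmaip1, Fas, Tnfrsf10b, Perp, Aen, Apaf1 and Pidd1. These 9 genes were chosen by symbol out of 53465 mouse genes in the deposited count table, and all 9 were among the 11510 genes with enough counts to be tested. Expression was profiled by RNA sequencing in 6 cell lines, each grown from a liver tumour of a different C57BL/6 mouse. The 3 Myc_Utx lines (2A, 2B and 2D) came from Kdm6a-deficient tumours (UTX is another name for KDM6A, a histone H3K27 demethylase), and the 3 Myc_p53 lines (1, 2 and 3) came from p53 knockout tumours. All tumours were started in female mice aged 8 weeks by hydrodynamic tail vein injection of a transposon for c-myc together with a plasmid for Cas9 and a guide RNA against Kdm6a or p53, so both groups share the Myc transgene, and no drug treatment is given for any line. The plasmids reach a subset of adult hepatocytes, the tumour cells were passaged in culture to lose other cell types, as judged by eye, and whether a line is 1 clone is not stated. No line with both Kdm6a and p53 intact was analysed here, so a higher level in Myc_Utx and a lower level in Myc_p53 lines cannot be told apart.

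p53 is a transcription factor that is stabilised by DNA damage and by oncogenes such as c-myc, binds response elements made of a pair of 10-base motifs (decamers), and switches on genes of cell cycle arrest, repair, feedback and death. Its death targets act along several routes. Bax, Bbc3 (PUMA) and Pmaip1 (NOXA) belong to the BCL2 family and act at the mitochondrion, from where released cytochrome c meets Apaf1 to build the apoptosome. Fas and Tnfrsf10b are death receptors at the cell surface, and Pidd1 is the scaffold of the PIDDosome, which activates caspase-2. In the liver, hepatocytes are known for their sensitivity to Fas.

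The promoters were searched for the p53 response element as a description, with no test. The genes are listed as p53 targets and may have been listed for such elements, so a match is no independent evidence. The RefSeq promoter table (GRCm38.p6, 250 bases before to 50 bases after each start site) holds 6 of the 9 genes; Pmaip1, Tnfrsf10b and Perp were not matched. The p53 response element consensus, a pair of decamers with a spacer of up to 13 bases, was compared with every position, both strands being covered because the decamer is its own reverse complement. The 3 stretches below are shown for the 2 closest matches, in Bax and Aen, and for the promoter match of Bbc3. Capitals mark the decamers, and lower case marks the spacer and the flanks.
Bax: tgacAAGCATATCCcAGGCAAGCTTtgaac
Aen: cGGGCTTGTCCgggcaagGAGCTTCCGCac
Bbc3: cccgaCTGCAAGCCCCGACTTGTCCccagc

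The Bax stretch (chr7:45467085-45467114, minus strand) has 1 mismatch to the consensus and a spacer of 1 base, and its decamers lie 212 to 192 bases before the start site. A match as close was present in 1.24% of the 27025 genes of the promoter table. For Aen (chr7:78895936-78895965, plus strand) the best match has 2 mismatches, both in the second decamer, a spacer of 7 bases and a place within the first 50 bases after the start site. Matches with at most 2 mismatches were found in 11.5% of genes. In Bbc3 (chr7:16309481-16309510, plus strand) the best match of its 3 promoters has 3 mismatches and no spacer, 97 to 78 bases before the start site. At most 3 mismatches were reached by 48.5% of genes, so that the matches of Bbc3, Fas and Pidd1, with 3 each, and of Apaf1, with 4, were no closer than those of many other genes. A decamer without any mismatch was present in the promoters of Bax and Aen, against 9.55% of all genes. These matches describe the sequence and say nothing on binding in these lines.

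Levels are given as CPM, reads scaled to one common library size with edgeR's TMM factors, and fold changes are of Myc_Utx over Myc_p53. The mRNA of the targeted gene Kdm6a overlapped between the groups, at 39.7, 45.7 and 49.0 CPM in Myc_Utx 2A, 2B and 2D and 69.5, 64.5 and 42.5 CPM in Myc_p53 1, 2 and 3 (log2 fold change -0.39, standard error 0.22, adjusted p = 0.243 by edgeR's quasi-likelihood test), so the mRNA level does not check the Kdm6a label. Total counts were 4656103 to 6937497 per library. Of the 9 hepatocyte markers, Alb had 4 to 26 counts and Apoa1 0 to 5 in any line, while Cebpa had 89 to 451. The labelled liver cells thus held little mRNA of Alb and Apoa1. Apob had 0, 6 and 1 counts in Myc_Utx and 88, 71 and 378 in Myc_p53 lines, and Hnf4a 3, 3 and 0 against 64, 8 and 47. Of the 9, 3 were higher in every Myc_p53 line and 1, Apoa1, in every Myc_Utx line. Their sums overlapped, at 33.9 to 103 CPM in Myc_Utx and 63.8 to 80.4 CPM in Myc_p53 lines. The summed macrophage markers were 37.6 to 56.0 CPM in Myc_Utx and 59.1 to 131.0 CPM in Myc_p53 lines. Of the 12 macrophage markers, 8 were higher in every Myc_p53 line and 1, Cd14, in every Myc_Utx line. Of all genes tested, 21.1% were higher in every Myc_Utx line. The share higher in every Myc_p53 line is not given here, so these marker counts have no background in that direction. Cd14 had 53.2, 34.3 and 32.3 CPM in Myc_Utx and 19.3, 18.9 and 21.7 CPM in Myc_p53 lines. It made up most of the Myc_Utx sums. Among the 8, Csf1r averaged 0.0624 CPM in Myc_Utx against 27.6 CPM in Myc_p53 lines, and Lyz2 0.312 against 33.2 CPM. Endothelial markers summed to at most 1.42 CPM and T cell markers to at most 0.855 CPM in any line, while the sums of fibroblast or stellate cell markers (41.1 to 3164 CPM) and cholangiocyte markers (153 to 1463 CPM) overlapped between the groups. Of the 6 cholangiocyte markers, 3 (Krt7, Krt19 and Cldn4) were higher in every Myc_p53 line and 0 in every Myc_Utx line, with the same lack of a background share. Krt7 had 1, 0 and 2 counts in Myc_Utx and 100, 3 and 459 in Myc_p53 lines. Cldn4 had 0, 0 and 0 against 6, 1 and 10. Neither Krt7 nor Cldn4 had enough counts to be tested. The part of these differences in the results below was not tested, and in bulk RNA fewer cells of a type and less RNA per cell cannot be told apart.

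Most of the apoptosis targets of p53 had more mRNA in the Myc_Utx lines. At an adjusted p under 0.05, 6 of the 9 genes were higher (Bax, Pidd1, Perp, Aen, Tnfrsf10b and Bbc3), while 6.99% of all genes tested were called higher. DESeq2 also called 6 of the 9 genes higher, with 9.37% of all genes. None of the 9 was called lower by edgeR, by DESeq2 or at an unadjusted p under 0.05 in edgeR, where the shares of all genes were 7.69%, 11.5% and 18.3%. In 8 of the 9 genes every Myc_Utx line was above every Myc_p53 line, a pattern seen in 21.1% of genes tested, and Pmaip1 was the exception. The median log2 fold change of the 9 genes was 1.56, and that of all genes tested was -0.01. With 3 lines against 3, an exact two-sided permutation test cannot give a p below 0.1, so the calls rest on the model fitted across all genes.

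**Figure D1:**
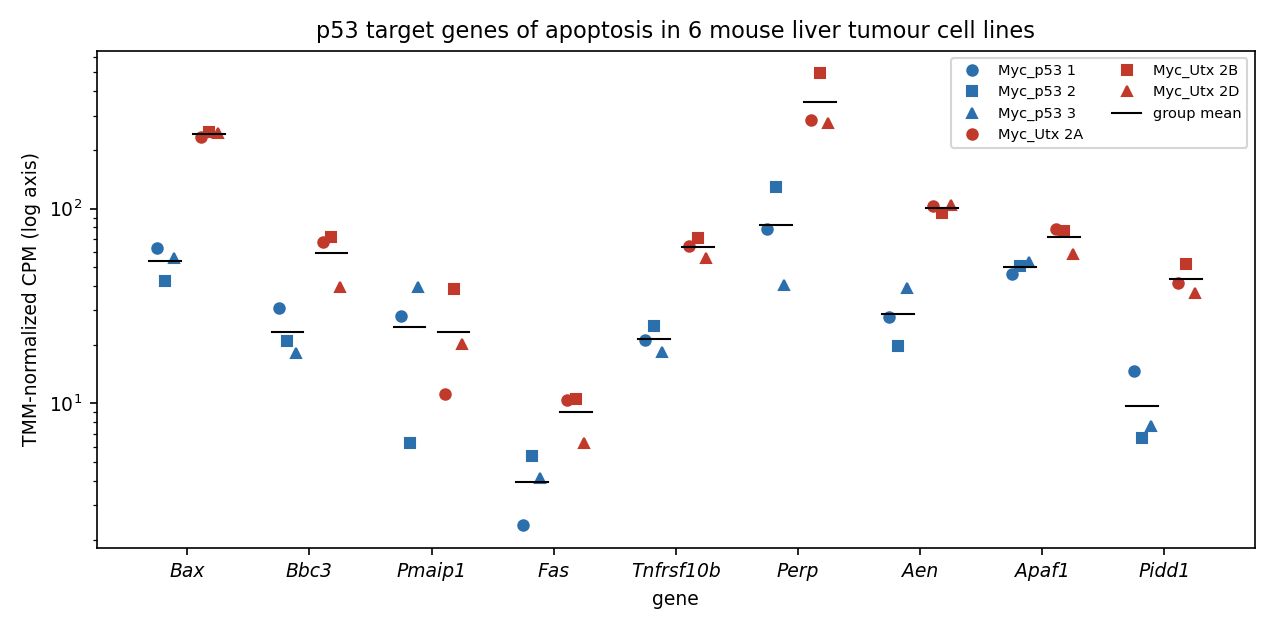
TMM-normalized CPM (log axis) of each gene in the 3 Myc_p53 lines (blue) and the 3 Myc_Utx lines (red); a marker shape stands for 1 line and black bars for group means. The colours separate for every gene but Pmaip1, and the gap is narrow for Apaf1, Fas and Bbc3.

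Among the BCL2 family members, Bax was the most uniform. Bax (ENSMUSG00000003873, chromosome 7 of GRCm38, 45461697 to 45466898) encodes the pore-forming protein of the outer mitochondrial membrane. It had 233, 246 and 245 CPM in Myc_Utx 2A, 2B and 2D and 62.9, 42.3 and 55.6 CPM in Myc_p53 1, 2 and 3. The Myc_Utx lines differed among themselves by a coefficient of variation of 3.08%, and the lowest of them was 3.70-fold above the highest Myc_p53 line. Group means were 242 ± 7.45 and 53.6 ± 10.5 CPM (SD, n = 3 each). On the log2 scale the groups differed by 2.17 ± 0.17 (standard error, adjusted p = 0.00644 by edgeR), and Bax ranked 12 of 11510 genes by p.

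Bbc3 and Pmaip1 both encode BH3-only proteins, which bind the survival proteins of the BCL2 family, and of these Bbc3 passed the test and Pmaip1 did not. Bbc3 (ENSMUSG00000002083, chromosome 7, 16308393 to 16318205) had 67.6, 71.5 and 39.4 CPM in Myc_Utx and 31.0, 20.9 and 18.1 CPM in Myc_p53 lines. Myc_Utx 2D sat well below the other Myc_Utx lines and 1.27-fold above Myc_p53 1. The fit gave a log2 fold change of 1.35 ± 0.31 (standard error) and an adjusted p of 0.0374 by edgeR, near the threshold. Pmaip1 (ENSMUSG00000024521), whose protein binds Mcl1, had 11.2, 38.8 and 20.3 CPM in Myc_Utx and 28.1, 6.30 and 39.5 CPM in Myc_p53 lines. Its levels spread 3.47-fold within the Myc_Utx lines and 6.27-fold within the Myc_p53 lines, and the groups overlapped throughout. The log2 fold change of Pmaip1 was -0.08 with a standard error of 0.70, wider than that of any of the other 8 genes (adjusted p = 0.948 by edgeR).

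Of the death receptors, Tnfrsf10b passed the test and Fas did not. Tnfrsf10b (ENSMUSG00000022074, chromosome 14, 69767472 to 69784411), the mouse receptor for TRAIL, had 64.0, 70.6 and 55.7 CPM in Myc_Utx and 21.2, 25.0 and 18.4 CPM in Myc_p53 lines. The lines of each group lay close together, with coefficients of variation of 11.8% and 15.5%, and the gap between the groups was 2.22-fold. The log2 difference was 1.56 ± 0.18 (standard error, adjusted p = 0.0130 by edgeR). Fas (ENSMUSG00000024778, chromosome 19, 34290659 to 34327770), the receptor for Fas ligand, was counted 52, 56 and 28 times in Myc_Utx and 15, 29 and 29 times in Myc_p53 lines. These counts gave 10.4, 10.5 and 6.24 CPM against 2.37, 5.38 and 4.13 CPM. The Myc_Utx lines were above the Myc_p53 lines by as little as 1.16-fold, and the log2 fold change of 1.19 (standard error 0.40) did not pass the test (adjusted p = 0.0908 by edgeR).

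Perp and Aen act outside the receptor and BCL2 routes. Perp (ENSMUSG00000019851, chromosome 10, 18845020 to 18857073) encodes a tetraspan membrane protein that also serves desmosomes. It had 285, 495 and 275 CPM in Myc_Utx and 78.9, 129 and 40.8 CPM in Myc_p53 lines. Its spread within a group was wide, 1.80-fold in Myc_Utx and 3.15-fold in Myc_p53 lines, with 2B the highest line by far. The log2 difference of 2.09 ± 0.45 (standard error, adjusted p = 0.0336 by edgeR) was close to that of Bax but had a wider error. Aen (ENSMUSG00000030609, chromosome 7, 78895854 to 78911209) encodes apoptosis-enhancing nuclease, which cuts nucleic acids. It had 104, 94.9 and 105 CPM in Myc_Utx and 27.7, 19.6 and 39.2 CPM in Myc_p53 lines. The Myc_Utx values of Aen were nearly level, with a coefficient of variation of 5.37%, and the Myc_p53 values varied by 34.1%. Between the groups the log2 difference was 1.81 ± 0.26 (standard error, adjusted p = 0.0164 by edgeR).

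Of the scaffolds of caspase activation, Pidd1 passed the test and Apaf1 did not. Pidd1 (ENSMUSG00000025507, chromosome 7, 141438113 to 141444025) had 41.7, 51.9 and 36.7 CPM in Myc_Utx and 14.7, 6.67 and 7.70 CPM in Myc_p53 lines. The lowest Myc_Utx line was well above Myc_p53 1, which in turn was the highest of its group by far. The log2 difference of Pidd1 was 2.16 ± 0.34 (standard error, adjusted p = 0.0185 by edgeR). Apaf1 (ENSMUSG00000019979, chromosome 10, 90989311 to 91082770) had 78.4, 76.4 and 58.6 CPM in Myc_Utx and 46.3, 51.0 and 53.04 CPM in Myc_p53 lines. The groups of Apaf1 did not overlap, but the nearest lines were 1.10-fold apart and the log2 fold change of 0.51 (standard error 0.16) did not pass the test (adjusted p = 0.0753 by edgeR). Over all genes tested, longer transcripts had lower log2 fold changes (Spearman's rho -0.249; genes are not independent replicates), and Apaf1 has the longest transcript of the 9 genes, 9028 bases. With transcript length and GC content corrected in each line, its log2 fold change was 0.70 and its adjusted p 0.0348 by edgeR. The same correction lowered Bax to 1.92, Perp to 1.92, Bbc3 to 1.13, Fas to 0.92 and Pmaip1 to -0.27. It raised Tnfrsf10b to 1.65, Aen to 1.90 and Pidd1 to 2.18. Bbc3 (adjusted p = 0.0454 by edgeR) and Perp (adjusted p = 0.0463 by edgeR) then passed narrowly.

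**Figure D2:**
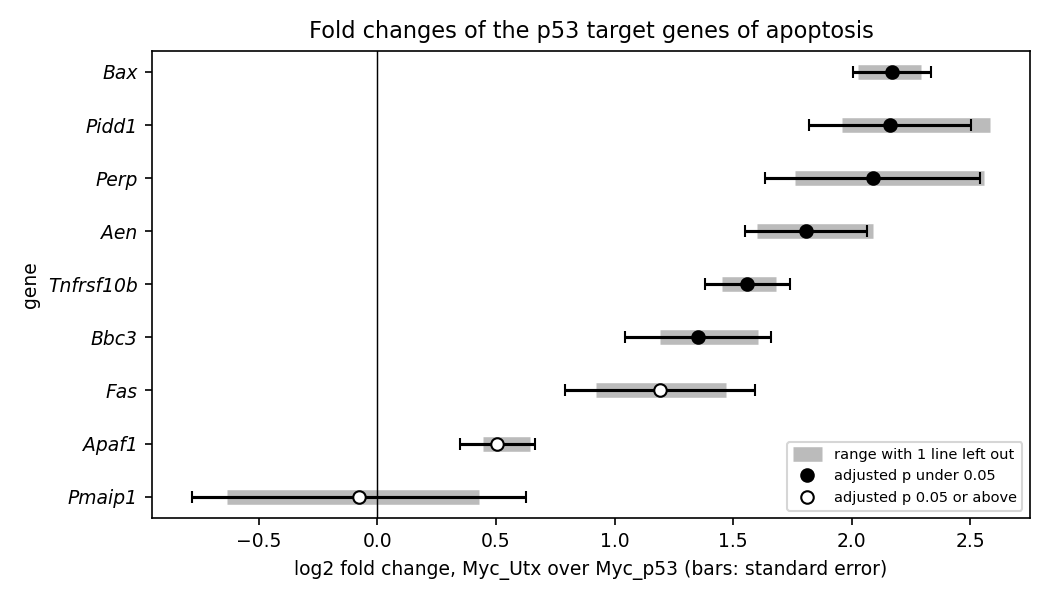
Log2 fold change of each gene, Myc_Utx over Myc_p53 (points), with its standard error (black bars) and the range of the 6 fits that each left out 1 line (grey); filled points passed an adjusted p of 0.05. Bax, Pidd1 and Perp lie above 2, and Pmaip1 lies at -0.08 with a grey range on both sides of 0.

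The size of the differences was not shared evenly. Of all genes tested, 1.11% had a log2 fold change at least as high as that of Bax and 1.15% as that of Pidd1. The share was 2.77% for Bbc3, 3.57% for Fas and 17.7% for Apaf1. Within the Myc_Utx group, 2B was the highest line for 7 of the 9 genes and 2D the lowest for 6. In the Myc_p53 group, each of the 3 lines was the highest for 3 genes, so no line stood below the others throughout.

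The calls depended on which line was left out. Without 2A none of the 9 genes was called higher, without 2B only Bax, and without 2D only Bax and Tnfrsf10b, while 0.0249%, 0.357% and 0.355% of all genes were then called higher. Leaving out Myc_p53 3 gave 3 calls (0.538% of all genes). Leaving out Myc_p53 1 gave 5 (4.08% of all genes), and leaving out Myc_p53 2 also gave 5 (7.01%). In these 6 fits the log2 fold changes of all but Pmaip1 stayed above 0, from 0.45 at the lowest for Apaf1 to 2.58 at the highest for Pidd1.

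Levels were compared between genes as CPM per kb of transcript. In Myc_Utx lines Perp (180.1 ± 63.5, SD, n = 3) and Bax (153 ± 4.72) were the most abundant, and their lines overlapped. Bbc3 (28.0 ± 8.25), Aen (17.4 ± 0.937) and Tnfrsf10b (11.6 ± 1.37) followed, with no overlap between neighbours in this order. Pidd1 (9.59 ± 1.70), Pmaip1 (8.84 ± 5.31) and Apaf1 (7.88 ± 1.21) could not be ordered, since the lines of each overlapped those of the next, and Pidd1 also overlapped Tnfrsf10b. Fas had the lowest mean, at 5.01 ± 1.34 CPM per kb, without overlap with Apaf1 but with overlap with Pmaip1, which was below Fas in 2A. In Myc_p53 lines Perp (42.4 ± 22.6) and Bax (34.0 ± 6.64) also led. The lowest means there were those of Fas (2.20 ± 0.838) and Pidd1 (2.14 ± 0.964), whose lines overlapped.

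**Figure D3:**
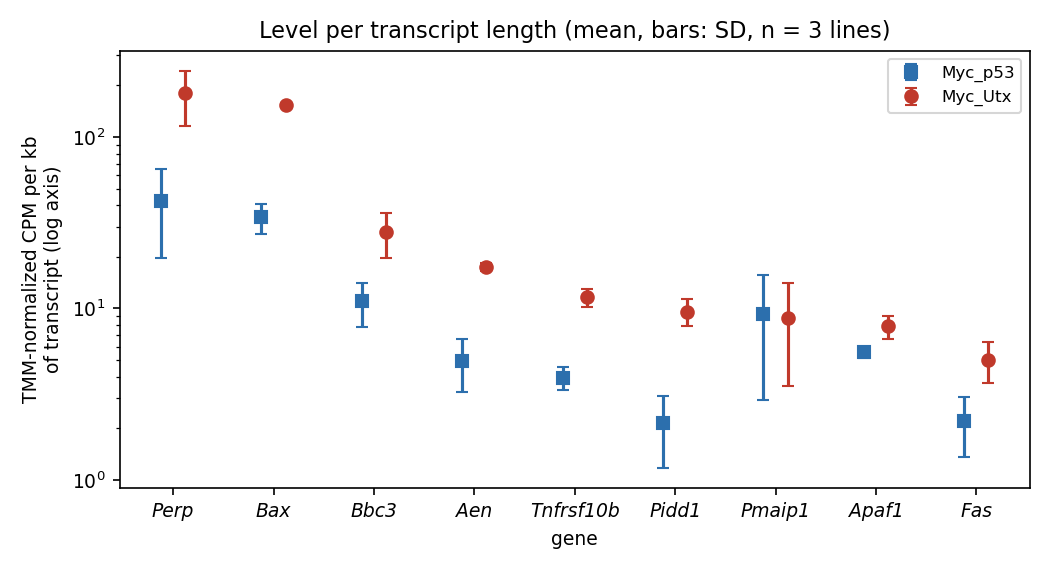
Mean TMM-normalized CPM per kb of transcript (log axis) in Myc_Utx (red circles) and Myc_p53 lines (blue squares), with SD over 3 lines, in the order of the Myc_Utx means. Perp and Bax stand above the other genes in both groups, and Pmaip1 is the gene whose group means lie closest together.

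The genes whose pattern over the 6 lines was most like the mean of the 9 were looked for among 9414 genes outside the lists, all with 50 or more counts on average. Pearson's r, over 6 lines that share the group difference and with no test, was highest for Pmm1 (0.998), a phosphomannomutase, followed by 4930453N24Rik, Neto2, Pqbp1 and Rufy1 (0.994 to 0.995). Since r does not measure the size of a difference, their log2 fold changes were uneven. These were 1.45 for Pmm1, 0.29 for 4930453N24Rik, 1.61 for Neto2, 0.63 for Pqbp1 and 0.71 for Rufy1. Pmm1 had 85.4, 107.9 and 79.7 CPM in Myc_Utx and 38.7, 29.1 and 31.9 CPM in Myc_p53 lines, which follows from how it was chosen and was not tested. An r over 0.95 was reached by 196 genes.

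The p53 targets of arrest, repair and feedback were also largely higher in the Myc_Utx lines. Of 24 such genes tested, 14 were called higher and 0 lower by edgeR (14 and 0 by DESeq2, 14 and 2 at an unadjusted p under 0.05), with a median log2 fold change of 1.41. Of all genes, 6.99% were called higher by edgeR and 9.37% by DESeq2. The shares lower were 7.69%, 11.5% and, at an unadjusted p under 0.05 in edgeR, 18.3%. The share higher at that unadjusted threshold is not given here, so the 14 higher there have no background. Of the 14, those with the smallest p were Ccng1 (log2 fold change 3.70, adjusted p = 0.00511 by edgeR), cyclin G1, followed by Ckap2 (1.42), Zmat3 (2.39) and Gtse1 (1.83). Cdkn1a, the p21 inhibitor of cyclin-dependent kinases, and Mdm2, the ubiquitin ligase that removes p53, were chosen after their values were seen. Cdkn1a had 281 ± 32.9 CPM in Myc_Utx and 14.9 ± 10.7 CPM in Myc_p53 lines (SD, n = 3), a log2 fold change of 4.23 against at most 2.17 among the 9 apoptosis targets (adjusted p = 0.0156 by edgeR). Mdm2 had 259 ± 72.2 against 52.0 ± 10.4 CPM (log2 fold change 2.31, adjusted p = 0.0127 by edgeR). The other 10 targets did not pass, and 6 of them had log2 fold changes below 0, down to -1.10. The count of 14 became 1 without 2A, 5 without 2B, 8 without 2D and 8 without Myc_p53 3. In these fits 0.0249%, 0.357%, 0.355% and 0.538% of all genes were called higher. Cdkn2a, whose Arf product restrains Mdm2, was lower in Myc_Utx lines (74.8 ± 25.5 against 359 ± 26.0 CPM, log2 fold change -2.26, adjusted p = 0.0137 by edgeR), whereas Mdm4 (0.23, adjusted p = 0.313) and Usp7 (0.02, adjusted p = 0.897) did not pass the test.

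Most genes of the caspase machinery on which these targets act were not called. Of 13 caspase and apoptosome genes tested, 2 were called higher and 1 lower, against 6.99% and 7.69% of all genes. The lower call is near the background share, and the higher calls are above it but rest on 2 genes. The median log2 fold change was -0.05. Cycs, which encodes the cytochrome c that Apaf1 binds, had 87.2, 102 and 134 CPM in Myc_Utx and 44.1, 28.0 and 47.3 CPM in Myc_p53 lines (log2 fold change 1.43, adjusted p = 0.0226 by edgeR). Htra2, a mitochondrial protease, was also higher (1.17, adjusted p = 0.0340 by edgeR), and Birc3, an inhibitor of apoptosis protein, was lower (-1.68, adjusted p = 0.0293 by edgeR). Casp9, the caspase of the apoptosome, had 15.9 ± 0.767 against 24.6 ± 3.66 CPM (SD, n = 3), which did not pass the test (log2 fold change -0.63, adjusted p = 0.0665 by edgeR). Without 2A, 2B, 2D or Myc_p53 3 the list had 0 calls in either direction. In those fits at most 0.538% of all genes were called higher and 0.487% lower.

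Ligands for the death receptors were barely detected, with 0 to 1 count of Fasl and 0 to 4 counts of Tnfsf10 in any line. Of the 11 death receptor genes tested, 2 were called higher and 0 lower by edgeR, against 6.99% and 7.69% of all genes. DESeq2 called 3 and 0, against 9.37% and 11.5% of all genes. At an unadjusted p under 0.05 in edgeR there were 5 higher and 0 lower. There 18.3% of all genes were lower, and the share higher is not given here. The median log2 fold change of the list was 0.30. The 2 called by edgeR were Tnfrsf22 (0.95, adjusted p = 0.0334), a decoy receptor for TRAIL, and Tnfrsf1a (0.92, adjusted p = 0.0383), the TNF receptor. Without 2A, 2B, 2D or Myc_p53 3 neither passed, and 1 passed without Myc_p53 1 or 2. Where neither passed, at most 0.538% of all genes were called higher. Fadd, the adaptor of Fas and Tnfrsf10b, differed by 1.06 on the log2 scale (adjusted p = 0.104 by edgeR), and Casp8, the caspase it recruits, by -0.03 (adjusted p = 0.963 by edgeR), neither past the test. Neither of the partners of Pidd1 was called by edgeR, and Casp2 had an unadjusted p under 0.05 and was called lower by DESeq2. Cradd, the adaptor, had 5.09 ± 1.24 against 3.33 ± 0.474 CPM (log2 fold change 0.61, adjusted p = 0.225 by edgeR), and Casp2, the caspase of the PIDDosome, had 34.3 ± 4.33 against 57.5 ± 14.4 CPM (-0.75, adjusted p = 0.0704 by edgeR).

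**Figure D4:**
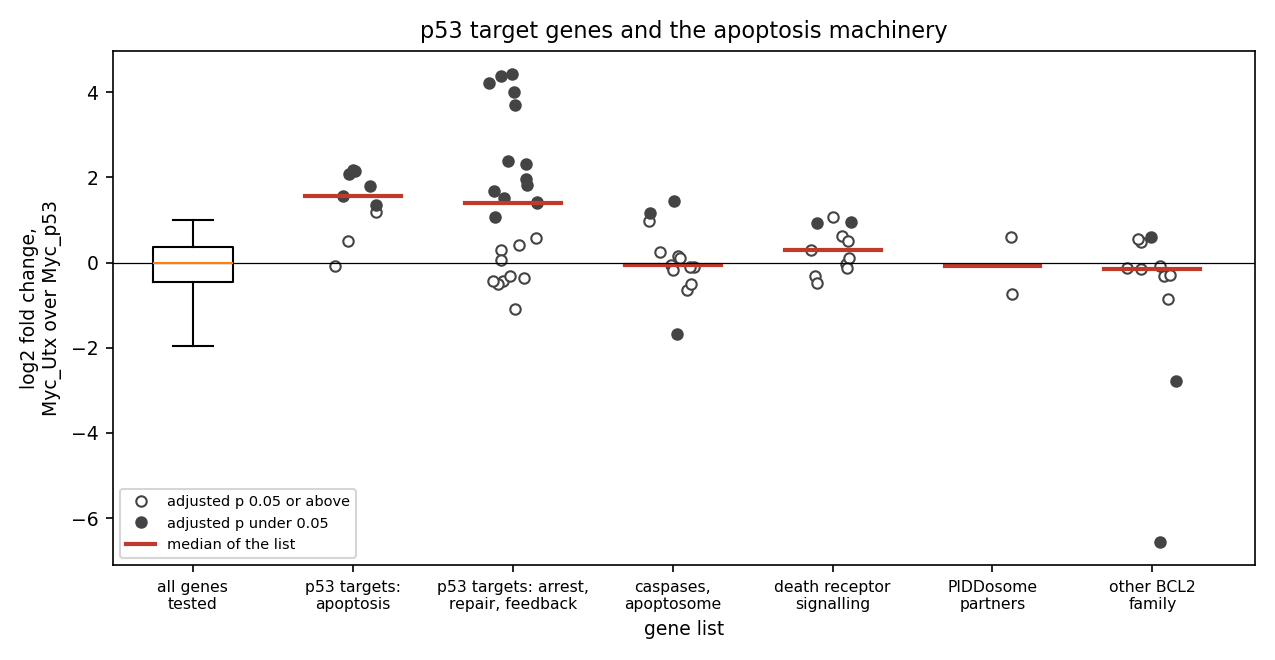
Log2 fold change, Myc_Utx over Myc_p53, of each tested gene by list (filled, adjusted p under 0.05), with the median of each list in red; the box shows quartiles of all genes tested and its whiskers run from percentile 5 to 95. Both p53 target lists have medians above 1 (1.56 and 1.41), and the other lists have medians between -0.16 and 0.30.

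Bax and Bbc3 work against or with the rest of the BCL2 family, of which 11 further genes were tested. By edgeR, 1 was called higher and 2 were called lower, against 6.99% and 7.69% of all genes, so the higher call is near the background share. The median log2 fold change was -0.16. Bak1, the pore-forming relative of Bax, was higher by 0.60 on the log2 scale (adjusted p = 0.0482 by edgeR), at 118 ± 5.31 against 77.6 ± 13.2 CPM (SD, n = 3). Bak1 passed with TMM and in DESeq2, and it missed the threshold with no filter on low counts, with 10 counts in every line, with DESeq2 size factors, with total counts and with length and GC offsets. Both lower genes encode BH3-only proteins like Bbc3. Bcl2l11 (BIM) had 9.17, 10.9 and 7.35 CPM in Myc_Utx and 57.2, 70.6 and 61.6 CPM in Myc_p53 lines (log2 fold change -2.78, adjusted p = 0.00511 by edgeR), and Hrk had 1, 3 and 0 counts against 330, 50 and 137 (adjusted p = 0.0185 by edgeR). The lower calls became 0 without 2A and 1 without 2B, 2D or Myc_p53 3, where at most 0.487% of all genes were called lower. The survival genes Bcl2 (-0.12, adjusted p = 0.891), Bcl2l1 (-0.09, adjusted p = 0.911) and Mcl1 (-0.30, adjusted p = 0.108) did not pass the test.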

How the data were processed

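RNA sequencing of 3 Myc_Utx and 3 Myc_p53 cell lines was analysed, grouped by their labels. The deposited values are raw read counts of Ensembl genes that the authors left unnormalized, with coordinates that equal GENCODE M21 (GRCm38) for 7 of the 9 genes. The submitters' processing notes list Trimmomatic 0.36, STAR 2.5.3a, featureCounts 1.6.3 and DESeq2 1.20.0 with GRCm38, whereas the study's methods name HTSeq and a human build, and name sgMll3 instead of sgKdm6a lines. The labels were followed. The level of 1 of the targeted genes is not reported here. The strand setting of the counting is not given in the sources used here. Genes overlapping Bax, Fas and Apaf1 held at most 0.333 counts per line on average.

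edgeR 4.0.16 was run in R 4.3.3: filterByExpr with a minimum count of 10, TMM normalization and the quasi-likelihood F test, with Benjamini-Hochberg adjustment over the 11510 genes tested. Calls are adjusted p under 0.05. Each standard error was derived from the fold change and its F statistic. CPM per kb used the deposited transcript length. Lines are separate tumours. The genes and lists were chosen with earlier results of these data known. Named genes are the 9 targets, the targeted and control genes, direct partners, up to 4 called genes per list and direction with the smallest p, and the 5 most alike genes. Alternatives were other count filters, DESeq2 size factors, total counts, DESeq2 1.42.0, per-line offsets for length and GC (robust regression on splines with 5 degrees of freedom, MASS 7.3.60.0.1) and leaving out each line.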

Additional observations from a re-analysis of the deposited data

How the results depend on the processing

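No paired analysis was possible because the lines of the groups share no replicate number. With all 6 lines, 6 of the 9 genes were called higher in DESeq2 and in edgeR without a count filter, with 10 counts demanded of every line, with DESeq2 size factors or with total counts, and 7 with length and GC offsets, where Apaf1 was added. No alternative called any of the 9 lower. With 1 line left out, 0 to 5 were called higher, and the cause was not tested. Pmaip1 changed direction in 4 of these fits, at 0.28 without Myc_Utx 2A, 0.04 without Myc_Utx 2D, 0.02 without Myc_p53 1 and 0.43 without Myc_p53 3 (range -0.64 to 0.43). Bax passed in 5 of the 6 such fits, with an adjusted p of 0.0518 by edgeR without 2A, Tnfrsf10b in 4, Aen in 3, Pidd1 in 2, and Bbc3 and Perp in 1 each. Fas did not pass under any alternative, with adjusted p from 0.0703 to 0.220. At this depth Fas, with 15 to 56 counts per line, is the least precisely counted of the 9. For the other lists and genes, alternatives were chosen after seeing the data. The death receptor list kept 1 higher call without a count filter and 1 with length and GC offsets (0 to 1 with a line left out). The PIDDosome list gained 1 lower call in DESeq2 (0 to 1 with a line left out). The BCL2 list had 0 higher calls in every edgeR alternative with all 6 lines (0 to 1 with a line left out) and 1 lower call with 10 counts in every line (0 to 2). The caspase list had 0 to 2 higher and 0 to 1 lower calls, and the arrest list 1 to 14 higher calls, with a line left out. Usp7 changed direction with 10 counts in every line (-0.020) and total counts (-0.044), Casp8 without a count filter (0.00325) and Bcl2 with length and GC offsets (0.063). With a line left out, Usp7 ranged from -0.021 to 0.10, Casp8 from -0.25 to 0.28, Bcl2 from -0.48 to 0.31 and Bcl2l1 from -0.37 to 0.28.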
